A study of Mus musculus with 8 samples.

Results

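Glycine signaling genes were followed in the hippocampus of 3xTg-AD mice, a transgenic model of Alzheimer's disease with plaques and tangles. The genes were 7 of the 18193 that the array names: the glycine receptor subunit genes Glra1, Glra2, Glra3 and Glrb, the glycine transporter genes Slc6a5 and Slc6a9, and Gphn, which encodes the scaffold protein gephyrin. Every probe set that names exactly one of them was taken, which gave 14 of 45037 probe sets on the array, and no probe set that names a member together with another gene had to be left out. The list was selected on earlier RA against control results of these same arrays, so the RA against control values of its members are given as a description. Their calls in the fit over all probe sets are counted once beside the share of all probe sets called, and nothing rests on them.

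The RA group consisted of 4 samples from male mice on an AIN-93G diet with 0.5% rosmarinic acid (RA), a polyphenol of herbs, and the control group of 4 samples from male mice on the same diet without RA. All mice, controls included, carried the transgenes for mutant amyloid precursor protein (Swe), tau (P301L) and presenilin 1 (M146V), were fed for 8 months and were 10 months old. No strain without these transgenes is part of the comparison. Each sample was hybridised to 1 array. The Methods name 4 mice per group, but they also call the RNA pooled, which leaves unclear whether every array holds RNA of a single mouse.

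Glycine receptors are chloride channels of 5 subunits, built from alpha subunits, which carry most of the glycine-binding surface, and beta subunits. The beta subunit binds gephyrin, which anchors the receptor at inhibitory synapses. Gephyrin also gathers GABA-A receptors and catalyses steps of molybdenum cofactor synthesis. Glycine is taken up by GlyT1 (Slc6a9), found mainly on astrocytes and on some glutamatergic terminals, and by GlyT2 (Slc6a5), which marks glycinergic neurons of the brainstem and spinal cord. In the adult hippocampus, glycine receptors are known mostly as extrasynaptic channels for ambient glycine or taurine, while Glra1 is the main alpha subunit gene of the adult spinal cord and brainstem.

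RefSeq promoter sequences (build GRCm38.p6) matched 6 of the 7 genes. Those of the receptor subunits whose transcripts varied between the arrays are shown, since the results turn on these subunits. Each run holds the 250 bases before the annotated start, 5′ to 3′ on the gene's strand, and capitals mark the GC box GGGCGG or the TATA box TATAAA on either strand.
Glrb, chr3:80913661-80913910, minus strand: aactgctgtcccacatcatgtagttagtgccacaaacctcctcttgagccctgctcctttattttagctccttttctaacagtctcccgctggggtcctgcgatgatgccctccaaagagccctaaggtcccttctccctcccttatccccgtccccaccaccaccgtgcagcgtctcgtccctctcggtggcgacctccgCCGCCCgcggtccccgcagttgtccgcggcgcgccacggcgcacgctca
Glra2, chrX:165327394-165327643, minus strand: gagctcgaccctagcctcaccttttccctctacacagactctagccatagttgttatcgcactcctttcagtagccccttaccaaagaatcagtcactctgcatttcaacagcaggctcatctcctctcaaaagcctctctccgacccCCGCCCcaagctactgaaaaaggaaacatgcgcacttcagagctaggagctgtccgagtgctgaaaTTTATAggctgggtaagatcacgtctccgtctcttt
Glra3, chr8:55940168-55940417, plus strand: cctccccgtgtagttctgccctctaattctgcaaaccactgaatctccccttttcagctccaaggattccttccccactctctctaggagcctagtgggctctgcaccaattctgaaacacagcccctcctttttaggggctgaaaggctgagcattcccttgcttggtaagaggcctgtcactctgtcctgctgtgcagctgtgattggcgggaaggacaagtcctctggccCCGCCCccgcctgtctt
Each of these windows held 1 GC box, which starts 49 bases before the start in Glrb, 102 in Glra2 and 17 in Glra3. Of the 32851 promoters in the table, 32.7% held a GC box in the same window. Glra2 was alone among them in holding a match to TATAAA, which 12.4% of all promoters held on either strand. The match begins 36 bases before the start of Glra2 and lies on the opposite strand, so the gene's strand reads TTTATA. The motif CACGTG, also searched on both strands, was in none of the windows and in 6.02% of all promoters. The window of Glrb held 20 CpG dinucleotides and had a GC content of 62.4%, that of Glra2 8 and 50.4%, and that of Glra3 4 and 56%. The medians of all promoters were 6 CpG dinucleotides and 52.4%. These matches describe letters in the windows, and binding was not measured.

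The authors condensed the probes of each probe set into 1 log2 value per array with FARMS, a factor analysis. Where the probes do not vary together, FARMS returns almost the same number for every array, so a probe set was counted as measured only where the SD over the 8 arrays was above 0.01. This held for 4 of the 14 probe sets (28.6%) and for 3758 of all 45037 (8.34%). The measured ones were Glrb 1422504_at, Glra2 1434098_at, Glra3 1457747_at and Gphn 1426463_at, with SDs of 0.232, 0.400, 0.636 and 0.137. The other 10 probe sets had SDs of 9.24e-05 to 0.00865. Such flat values give no measure of a difference, and they show neither equal transcript levels nor the lack of a transcript.

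**Figure D1:**
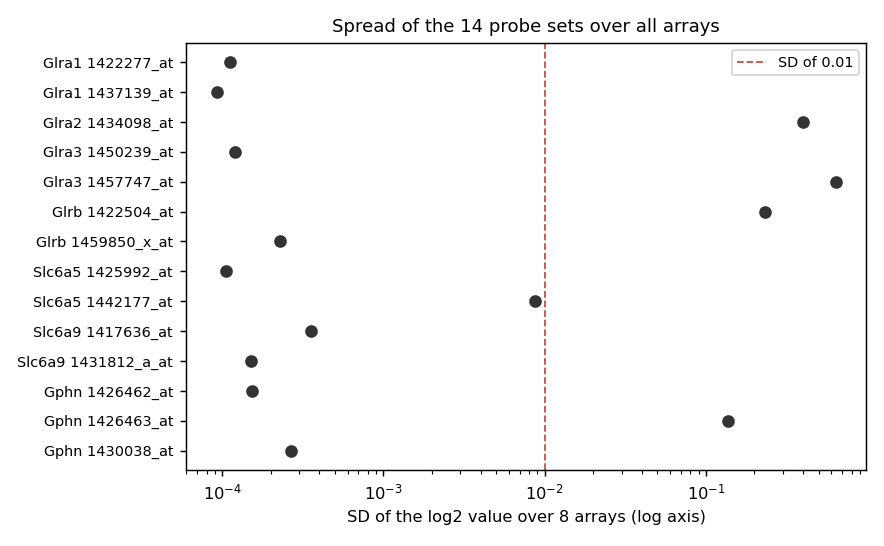
SD of the log2 value over the 8 arrays (log axis) for each of the 14 probe sets, with the limit of 0.01 as a dashed line. The points of 4 probe sets lie right of the line, from 0.137 for Gphn to 0.636 for Glra3, and the nearest point left of it is Slc6a5 1442177_at at 0.00865.

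The probe set nearest to the limit from below was Slc6a5 1442177_at. Its values were 5.29, 5.29, 5.29 and 5.29 in RA 1 to RA 4, and 5.31, 5.29, 5.29 and 5.29 in control 1 to control 4. Control 1 stood above the rest, and the other 7 arrays lay close together. The other Slc6a5 probe set (1425992_at) lay at 5.27 on all arrays. The probe sets of Slc6a9 lay at 7.49 (1417636_at) and 6.34 (1431812_a_at) on all arrays, and those of Glra1 at 5.82 (1422277_at) and 5.20 (1437139_at). Both transporters and the main alpha subunit gene of the spinal cord were therefore unmeasured for the effect of the diet. The second probe set of Glra3 (1450239_at, 5.34), the second of Glrb (1459850_x_at, 8.27) and 2 more of Gphn (1426462_at, 8.29, and 1430038_at, 6.41) were also nearly constant, so each measured gene rests on 1 probe set.

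The groups were compared over all probe sets with the rank product, the test of the Methods, and a probe set was called at an estimated share of false positives below 0.05. Of all probe sets, 0.888% were called higher in the RA group and 0.577% lower. All these calls fell among the 3758 measured probe sets, of which they make up 10.6% and 6.92%. Run on the measured probe sets alone, the rank product called 0.106% of them higher and 0.452% lower, with no glycine gene among them. Of the 14 probe sets of the glycine genes, 1 was called higher (Glra2) and 1 lower (Glrb). Nothing is read from these counts, since the genes were chosen with this contrast known. In no measured glycine gene did the groups separate completely, while 2.71% of all measured probe sets had all RA values above all control values and 2.87% had all of them below. Over all probe sets, limma called none at an adjusted p under 0.05 (4553 had an unadjusted p under 0.05), and the methods' t-test also called none after Benjamini-Hochberg adjustment. The median log2 difference over all measured probe sets was 0.069, and the RA mean was the higher one in 73.1% of them. Array medians were 5.83 to 5.84 in the RA group and 5.83 in the control group. In tissue RNA of this kind, fewer cells of a type and less RNA per cell cannot be told apart.

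Glrb, the beta subunit that links the receptor to gephyrin, was lower in the RA group. Its log2 value was 8.57, 8.34, 8.79 and 8.39 in RA 1 to RA 4, and 8.61, 8.94, 8.88 and 8.88 in control 1 to control 4. RA 1, RA 2 and RA 4 lay below every control array, while RA 3 lay above control 1, so the groups overlapped by 1 array on each side. The mean was 8.52 ± 0.21 in the RA group and 8.83 ± 0.15 in the control group (SD, n = 4 each), a log2 difference of -0.30 (standard error 0.122 from limma) or 0.811 times the control level. The difference was -0.39 without RA 3 and -0.24 without RA 2, the outer values when each array was left out.

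Glra2, the alpha subunit best known from immature neurons and still found in adult forebrain, was higher in the RA group. Its log2 value was 6.81, 7.09, 6.34 and 6.18 in RA 1 to RA 4, and 6.62, 6.03, 5.93 and 6.56 in control 1 to control 4. RA 2 and RA 1 stood above every control array, whereas RA 3 and RA 4 lay between control 4 and control 2. The mean was 6.60 ± 0.42 in the RA group and 6.28 ± 0.36 in the control group (SD, n = 4 each), a log2 difference of 0.32 (standard error 0.265 from limma) or 1.25 times the control level. Each group thus spread by more than the difference between them. When each array was left out, the difference ran from 0.16 without RA 2 to 0.46 without RA 4.

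**Figure D2:**
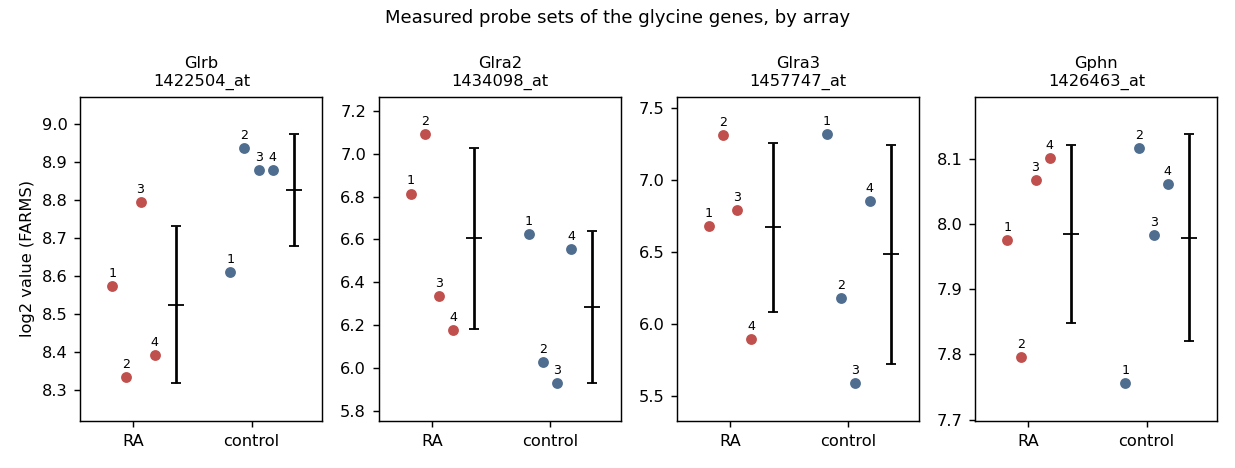
Log2 values (vertical axis) of the measured probe set of Glrb, Glra2, Glra3 and Gphn on each RA and control array, with the array number above each point and the mean ± SD (n = 4 per group) beside the points. The groups overlap in every panel, and RA 2 and control 1 are the highest arrays for Glra3 and the lowest for Gphn.

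Glra3, an alpha subunit known from spinal pain pathways and from part of the forebrain, varied more between arrays than any other glycine gene. Its log2 value was 6.68, 7.31, 6.79 and 5.89 in RA 1 to RA 4, and 7.32, 6.18, 5.59 and 6.85 in control 1 to control 4. The highest values came from control 1 and RA 2 and the lowest from control 3 and RA 4, so each group held both extremes. The mean was 6.67 ± 0.59 in the RA group and 6.48 ± 0.76 in the control group (SD, n = 4 each), a log2 difference of 0.18 (standard error 0.460 from limma). The difference was -0.11 without control 3 and -0.03 without RA 2, and it was 0.46 without control 1.

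The measured probe set of Gphn differed little between the groups. Its log2 value was 7.98, 7.80, 8.07 and 8.10 in RA 1 to RA 4, and 7.76, 8.12, 7.98 and 8.06 in control 1 to control 4. Control 1 and RA 2 were the low arrays, and the other 6 lay between 7.98 and 8.12. The mean was 7.99 ± 0.14 in the RA group and 7.98 ± 0.16 in the control group (SD, n = 4 each), a log2 difference of 0.0058 (standard error 0.100 from limma). With each array left out the difference ran from -0.07 without control 1 to 0.07 without RA 2. A difference this small beside its error does not show that gephyrin transcripts were equal.

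**Figure D3:**
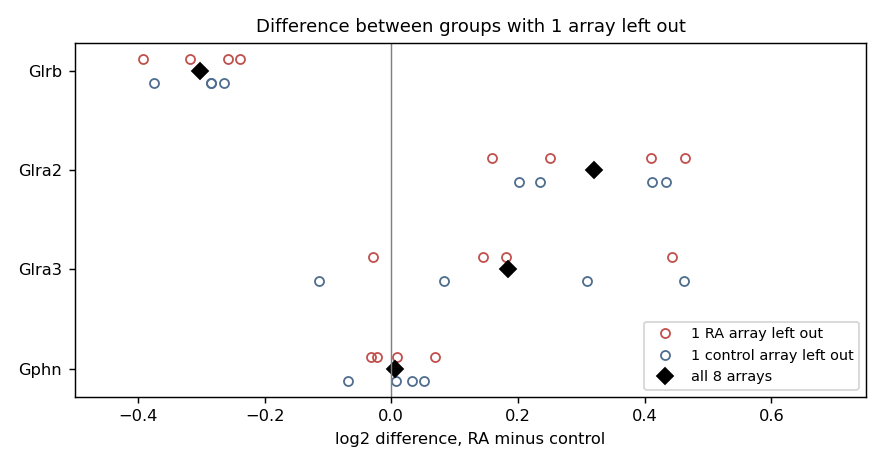
Log2 difference, RA minus control, with all 8 arrays (diamonds) and with 1 RA or 1 control array left out (circles). All circles of Glrb lie below 0 and all those of Glra2 above 0, while those of Glra3 run from -0.11 to 0.46 and those of Gphn from -0.07 to 0.07. Because the genes were selected on this contrast, the kept signs are a description only.

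The measured glycine genes were also compared with each other over the arrays, in 6 pairs. Glra2 and Glra3 ran together most closely, with a Pearson's r of 0.85 and a Spearman's rho of 0.79 over 8 arrays. The exact permutation test, 2-sided, gave p = 0.00908 for r and p = 0.0279 for rho, or 0.0545 and 0.168 after Benjamini-Hochberg adjustment over the 6 pairs. Without RA 2 and control 3, the arrays farthest from the median of Glra2, r was 0.71. The relation missed an adjusted threshold of 0.05. Within the groups, without a test, r of Glra2 with Glra3 was 0.83 over the RA arrays and 0.96 over the control arrays. In the other pairs r over 8 arrays ran from -0.66, for Gphn with Glra2 and with Glra3, to 0.48 for Glrb with Gphn. Their adjusted p for r was 0.165 or more in the exact permutation tests. The genes were selected on RA against control results of these arrays, and the tests permuted the arrays across both groups. The selected contrast therefore enters these p-values, and no conclusion is drawn from them.

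The arrays RA 2 and control 1 shared a profile across the measured glycine genes. Each had the highest Glra3 and Glra2 values and the lowest Gphn value of its group, and each had the lowest Glrb value of its group. The same arrays stood apart in markers of other cells. The mean log2 value of 9 oligodendrocyte genes was 8.44, 7.24, 8.25 and 8.64 in RA 1 to RA 4, and 7.40, 8.76, 8.59 and 7.76 in control 1 to control 4. RA 2 and control 1 were the lowest arrays in the mean and in each of the 9 genes. Of these genes Cldn11, Mbp and Mobp were called lower and none higher. RA 2 and control 1 were also the lowest arrays in the mean of 11 hippocampal neuron markers, at 7.05 in RA 2 and 7.17 in control 1, against 7.62 to 7.91 on the other arrays. Both were the lowest arrays in 8 of these 11 genes, among them Prox1, Neurod6 and Zbtb20. The other 3 ran otherwise, and Wfs1 (9.21), C1ql2 (6.96) and Grp (8.16) were highest in control 1. Of the 12 markers analysed Neurod1 was nearly constant, Dsp, Lct and Neurod6 were called lower, as was Glrb, and none was called higher. Their part in the glycine gene values was not tested. Without both arrays the log2 difference was -0.31 for Glrb, 0.27 for Glra2, 0.25 for Glra3 and -0.0060 for Gphn.

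Markers of tissue that borders the hippocampus also differed between arrays. Calls in these lists stand beside the 12.3% of all genes with a measured probe set that were called higher. The mean of 10 measured thalamus markers out of 12 was 6.89, 6.94, 6.31 and 6.59 in RA 1 to RA 4, and 6.41, 6.27, 6.25 and 6.63 in control 1 to control 4, and 7 of the 12 genes were called higher. RA 2 and RA 1 were the highest arrays for these markers and for Glra2, and control 3 was the lowest for both. Of 11 markers of brainstem and spinal cord that were analysed, 10 were nearly constant and only Isl1 was measured. The mean of the 12 choroid plexus genes was 5.55 to 7.89 in the RA group and 5.58 to 8.17 in the control group, highest in control 3, RA 4 and RA 3, and all 12 were called higher. Their log2 differences ran from 0.23 for Slc4a5 (standard error 0.401 from limma) to 1.91 for Ttr (standard error 1.88). The mean of 9 of 12 astrocyte genes was 8.40 to 8.55 in the RA group and 8.16 to 8.40 in the control group, and 5 were called higher. For the other lists the means were 8.67 to 8.78 in the RA group and 8.41 to 8.68 in the control group for 8 of 12 interneuron genes, with 1 called higher, and 8.13 to 8.44 in the RA group and 7.84 to 8.26 in the control group for 5 of 10 microglia genes, with none called. The part of these tissues in the glycine gene values was not tested.

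**Figure D4:**
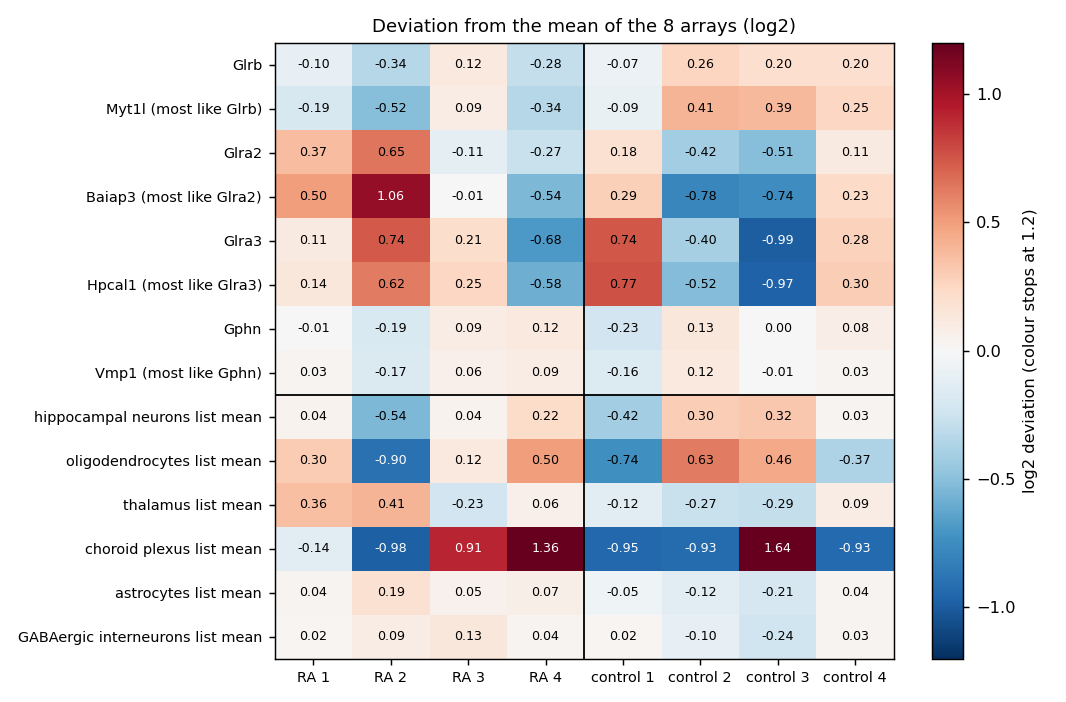
Deviation of each array from the mean of all 8 arrays, in log2 units, for the 4 measured glycine genes, for the gene whose values are most like each of them, and for the mean of 6 marker lists. RA 2 and control 1 deviate the same way in Glra3 (both 0.74), in Gphn (-0.19 and -0.23), in the hippocampal neuron list (-0.54 and -0.42) and in the oligodendrocyte list (-0.90 and -0.74). Their sizes differ in Glrb (-0.34 and -0.07) and Glra2 (0.65 and 0.18). They deviate in opposite ways in the thalamus list (0.41 and -0.12) and the astrocyte list (0.19 and -0.05). In the choroid plexus list both are low (-0.98 and -0.95), as are control 2 and control 4 (both -0.93).

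The genes most like each glycine gene were found among all measured probe sets by Pearson's r over the 8 arrays, as a description without a test. Glrb was most like the neuronal transcription factor Myt1l (r = 0.98), the kinase gene Mapk10, which encodes JNK3 (0.97), and the malate dehydrogenase gene Mdh1 (0.97). Myt1l, Mapk10 and Mdh1 had log2 differences of -0.48, -0.25 and -0.47 between the RA and control groups. A gene picked for a high r over all 8 arrays tends to share the group difference of its glycine gene. The directions given in this paragraph follow from that choice, and nothing is read from them. Glra2 was most like Baiap3, a gene of vesicle release, neuroglobin (Ngb) and the neuropeptide gene Cartpt (r = 0.99, 0.99 and 0.98), whose log2 differences were 0.50, 0.40 and 0.61. Glra3 was most like the calcium sensor gene Hpcal1, the protein kinase C substrate gene Marcks and the adhesion gene Cntnap5a (r = 0.99 for each). Their log2 differences were 0.21, 0.09 and 0.06. Gphn was most like Vmp1, which acts in autophagy, the interneuron gene Pvalb and the sodium channel gene Scn8a (r = 0.98 for each), with log2 differences of 0.0086, 0.04 and 0.02. Such values were common among the 3758 measured probe sets: r was above 0.9 for 350 with Glra3, 165 with Glra2, 134 with Gphn and 41 with Glrb. The source of this shared variation was not tested.

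Genes around the glycine genes were taken from 8 lists with 62 genes, of which 54 were analysed here and 17 had a measured probe set. Of these 54, 1 was called higher and 1 lower, where 1.68% of all 18193 genes had a probe set called higher and 1.11% one called lower. Among all 2496 genes with a measured probe set the shares were 12.3% and 8.09%. limma called none of the 54. The median log2 difference of the measured genes ran from 0.01 to 0.14 over the lists that have one, beside 0.08 over all measured genes.

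Among 12 gephyrin partners and other proteins of the inhibitory postsynapse, the actin-binding profilin gene Pfn2 was called lower and none higher. Its probe set 1436993_x_at had log2 values of 10.13, 9.86, 10.26 and 9.97 in RA 1 to RA 4, and 10.11, 10.50, 10.48 and 10.14 in control 1 to control 4. RA 2 and RA 4 lay below every control array and the other values overlapped. The log2 difference was -0.25 (standard error 0.131, adjusted p = 0.563 from limma), and other Pfn2 probe sets gave -0.12 (1418210_at) and 0.01 (1418209_a_at). The call was lost without RA 2, RA 4, control 2, control 3 or control 4, with log2 differences of -0.31 to -0.19 in these fits. The light chain gene Dynll1, Nlgn2, Iqsec3 and Pfn1 were measured and not called.

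Of 9 genes of vesicular and other glycine transport, 3 were measured and Slc6a20a, which encodes a proline transporter that also carries glycine, was called higher. Its log2 value was 6.62, 8.13, 7.08 and 7.0 in RA 1 to RA 4, and 7.24, 6.69, 6.50 and 6.96 in control 1 to control 4. Only RA 2 stood above control 1, the highest control array. The log2 difference was 0.36 (standard error 0.347, adjusted p = 0.756 from limma), and it was 0.05 without RA 2. The call was also lost without RA 1 (log2 difference 0.56), RA 3 (0.40), RA 4 (0.43), control 2 (0.31) and control 3 (0.24). The transporter genes Slc7a10 (log2 difference 0.14) and Slc38a3 (0.06) were not called, and the vesicular transporter gene Slc32a1 was nearly constant.

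The other lists held no called gene. Of 15 genes of glycine and serine metabolism, 2 were measured, the glycine amidinotransferase Gatm (log2 difference 0.05, standard error 0.329) and the serine synthesis enzyme Psat1 (0.02, standard error 0.148). None of the 6 genes of molybdenum cofactor synthesis and use was measured, nor was Glra4, a further alpha subunit gene. Of 2 NMDA receptor subunits that bind glycine, Grin3a was measured, with log2 values of 7.16, 7.55, 7.20 and 6.89 in RA 1 to RA 4, and 7.40, 6.87, 6.83 and 7.27 in control 1 to control 4. As for Glra3, RA 2 and control 1 were the highest arrays. Among 3 analysed GABA-A receptor subunits that gather at gephyrin, Gabra3 followed the same order at its top, with log2 values of 8.05, 8.53, 8.06 and 7.55 in RA 1 to RA 4, and 8.76, 7.53, 7.32 and 8.17 in control 1 to control 4. Its log2 difference was 0.10 (standard error 0.366), and that of Gabra2 was 0.01 (standard error 0.071). Of 6 chloride transport genes, the chloride importer Slc12a2 had a log2 difference of 0.14 (standard error 0.320) and the kinase Stk39 of -0.02 (standard error 0.191).

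**Figure D5:**
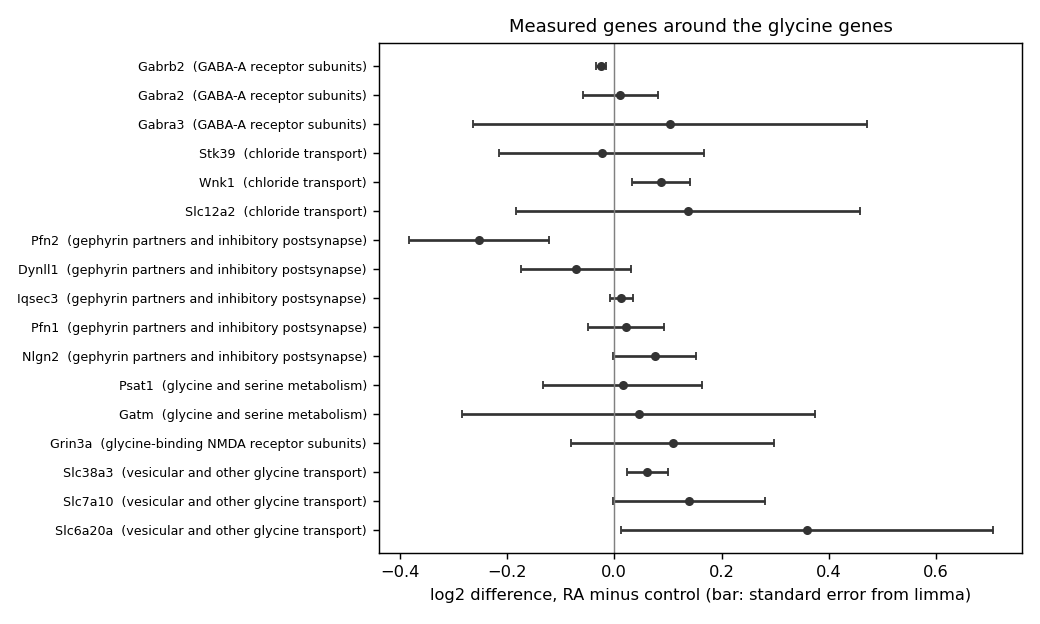
Log2 difference, RA minus control, of the 17 measured genes around the glycine genes, each from its probe set with the highest SD, with bars for the standard error from limma. Values run from -0.25 for Pfn2 to 0.36 for Slc6a20a.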

How the data were processed

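Hippocampal RNA of 4 RA and 4 control samples was hybridised to Affymetrix GeneChip arrays of the mouse genome. The authors processed the scans in R with Bioconductor 2.2 and FARMS (R 2.10.1), which turns the probes of a probe set into a single log2 value per array, and these log2 values were deposited. How FARMS scaled the arrays to each other is not stated in the sources read here. The log2 values were used as deposited, and the number of arrays limits the precision. p-values measure only the spread between these arrays, which may be technical. The 64 probe sets for manufacturer controls were removed. Of the rest, 34945 name 1 gene, through the platform annotation updated to GRCm38.p6, 932 name several and 9160 name none.

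The rank product of the Methods was rewritten in Python 3.11.15 (numpy 2.4.6) for 2 unpaired groups, with 16 differences per probe set, 100 permutations within arrays and a threshold of 0.05 in each direction. limma 3.58.1 (R 4.3.3) was fitted over all probe sets for standard errors and for p-values adjusted by Benjamini-Hochberg. Both were tested on simulated data, in which the rank product also called unchanged probe sets, so its estimate is not a calibrated error rate. The members and lists were chosen with earlier results of these data known. Named genes were every probe set of the 7 glycine genes, up to 4 called genes per list around them or, where none was called, the 2 with the highest SD, and the 3 genes most like each measured glycine gene. Dynll1, Nlgn2, Iqsec3, Pfn1, Slc7a10, Slc38a3, Slc32a1, Glra4 and the marker genes were named after their values were seen. Alternatives were other SD limits, scalings, filters, thresholds, tests and ways to combine probe sets, and each array left out.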

Additional observations from a re-analysis of the deposited data

Results flagged for a closer look

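The probe set 1419551_s_at of Stk39, a kinase that acts on chloride transporters, was at 7.58 in control 3, where the other control arrays lay between 7.36 and 7.38. The gap took up 0.901 of the range of the group, above Dixon's limit for 4 samples. It was the only one among 60 groups of 4 arrays checked, and chance flags about 5% of groups. No measured probe set of the glycine genes had such an array.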

How the results depend on the processing

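The number of measured probe sets of the glycine genes was 4 with SD limits of 0.02 and 0.05, with array medians subtracted and with each array left out. Quantile normalization gave 6, with Glrb 1459850_x_at and Gphn 1426462_at just above the limit at SDs of 0.01. The log2 differences of Glrb and Glra2 kept their direction under every alternative, from -0.39 to -0.24 and from 0.16 to 0.46 with 1 array left out. Those of Glra3 (-0.11 to 0.46) and Gphn (-0.07 to 0.07) did not, and the proportion of false positives of Glra3 ran from 0.0123 to 0.765. Because the genes were selected on this contrast in these arrays, a kept direction is a description and supports no effect. The sign of Gphn also turned with quantile normalization (-0.0038) and without control 1 and RA 2 (-0.0060). Averaging every probe set of a gene, nearly constant ones included, gave -0.15 for Glrb and 0.09 for Glra3. Each gene has 1 measured probe set, so a mean of the measured ones changed nothing.

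Counts of calls depended on the setting. With all arrays 400 probe sets were called higher and 260 lower. With 1 array left out these were 14 to 960 and 138 to 317, with 15, 41, 35 and 14 higher without RA 1 to RA 4, 960 and 217 higher without control 1 and control 2, and 138, 155 and 170 lower without control 2 to control 4. Probe sets with a low mean left out gave 51 higher, only measured probe sets 4 higher and 17 lower, and a threshold of 0.01 gave 27 higher and 156 lower. Without control 1 and RA 2 together, a setting chosen after seeing the data, 32 were called higher. limma, limma with a replicate block and the methods' t-test called 0 in either direction (4553, 3861 and 4095 with an unadjusted p under 0.05). Of the glycine genes, 1 probe set was called higher and 1 lower with all arrays. Nothing is read from these calls. The higher call numbered 0 to 2 with 1 array left out (Glra2 was lost without any RA array, control 2 or control 3, and Glra3 was added without control 1 or control 4), and it was 0 with low means left out, with only measured probe sets, at the threshold of 0.01, without control 1 and RA 2, and with limma, its replicate block and the methods' t-test. The lower call was lost, at 0, with only measured probe sets and in those 3 tests, and with 1 array left out it was 1 in each fit. In the lists around the glycine genes, the 1 higher and 1 lower gene became 0 to 3 and 0 to 2 with 1 array left out, and 0 with low means left out, with only measured probe sets, at the threshold of 0.01 and in those 3 tests, while without control 1 and RA 2 the higher gene was lost, at 0.

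Deviations of same-numbered arrays from their group means correlated at -0.12, -0.33, 0.45 and -0.39. The highest value of any RA and control pair was 0.74, for RA 2 with control 1. RA 4 with control 3 came next at 0.65, and RA 2 with control 3 was the lowest at -0.70. Centring within each group ties these values to each other, so they cannot show whether the replicate numbers pair the arrays. With the numbers as a replicate block, 82 probe sets were called higher and 209 lower by the rank product. Of the glycine genes it then called 0 higher and 2 lower, Glrb and also Glra3, whose mean difference was positive (0.18), and in the lists 1 gene higher and 0 lower. The causes of these shifts were not tested.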
